A study of Mus musculus with 24 samples.

Results

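The 2 sequencing runs of a study of mouse B cell lymphomas were compared with each other, once with the T cell group as a covariate and once within each T cell group. The members are the 23 libraries with a column of counts, out of 24 samples in the series. The submitters label the run as a batch, and the label alone put each library in run 1 or run 2. Run 1 held 12 libraries, 7 from T cell sufficient and 5 from T cell deficient lymphomas. Run 2 held 11 libraries, 5 from T cell sufficient and 6 from T cell deficient lymphomas. T cell sufficient lymphomas came from mice labelled Bcl6Tg/+, and T cell deficient lymphomas from mice labelled Bcl6Tg/+CD3Epsilon-/-. All carry the same transgene for Bcl6, a transcriptional repressor of germinal centre B cells, so no library is free of it. The CD3 epsilon chain is needed for T cell development. Per the labels, all mice were C57BL/6, the RNA came from B lymphoma cells purified from the spleen, and it was isolated with a Qiagen RNeasy kit and made into TruSeq RNA libraries. Age, the promoter that drives the transgene and the number of clones per lymphoma were not stated in the labels. The titles number the lymphomas, and each was taken here as a separate animal, which the titles do not state. Each lymphoma entered 1 run, except that T cell sufficient lymphoma 1 was sequenced in both runs as a link between them. Its run 2 library, as a sample of its own, was not analysed here.

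In RNA sequencing a run is a set of libraries that go through the sequencer together, and libraries of a run often share earlier steps too. The number of reads a gene gives depends on its level and on how its transcripts pass fragmentation, size selection and the enrichment of polyadenylated RNA, which differ with transcript length and with how much of an RNA stays in the nucleus. Lymphomas of different animals also differ in how fast their cells divide, how they signal through the B cell receptor and how many other cells of the spleen come with them. The gene groups below follow that division, with transcript classes first, then cell content, then programmes of the lymphoma cell. The labels give no RNA quality, fragment size or date of library preparation. Since each run holds other lymphomas, a difference of the libraries and a difference of the lymphomas cannot be told apart by the run label.

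Total counts over the listed genes ran from 7.58 to 30.6 M (M, mega) in run 1, with a mean of 19.5 M ± 7.95 (SD, n = 12), and from 11.8 to 22.9 M in run 2, with a mean of 16.5 M ± 3.87 (SD, n = 11). Run 2 was lower by 3.77 M with the group as stratum, which did not pass a permutation test (two-sided, p = 0.139, adjusted p = 0.186 over 4 library measures). A count of 3 is worth 0.098 to 0.396 CPM (counts per M, scaled by the TMM factors of edgeR), which covers counting error only. The 100 highest genes took 17.3% ± 1.35 (SD, n = 12) of the counts in run 1 and 15.3% ± 1.35 (SD, n = 11) in run 2 (permutation test within groups, two-sided, p = 0.00036, adjusted p = 0.00144). Transcripts of the sex chromosomes set some libraries apart. Run 1 held 3 libraries with Xist alone over 50 CPM, 8 with Y-linked transcripts alone over a summed 10 CPM and 1 with neither, and run 2 held 4, 4 and none. The other 3 libraries of run 2, T cell sufficient libraries 9, 10 and 11, held both, which no library of run 1 did. The counts of called genes are therefore given with and without these 3 libraries. The column of T cell sufficient library 1 is the deepest, and it is not stated whether it holds both of its libraries, so counts of run 2 may be part of it. Over genes chosen without it, its mean of the log2 levels of the genes higher in run 2, less that of the genes lower in run 2, was -2.40, among -3.79 to -2.04 in the other run 1 libraries and apart from -0.517 to 0.978 in run 2. The other libraries chose these genes, so their own separation was fixed by the choice, and only the value of library 1 is free of it.

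With the T cell group adjusted, 4007 of 11140 tested genes (36.0%) differed between the runs at an adjusted p under 0.05 (edgeR quasi-likelihood test, Benjamini-Hochberg adjustment; such genes are called here). Of these, 2054 were higher in run 2 (18.4%) and 1953 were lower (17.5%). Most differences were small. The median size among called genes was 0.58 on the log2 scale, and 555 genes were more than 2-fold higher and 175 more than 2-fold lower. More than 4-fold differences numbered 113 higher and 26 lower. In 298 genes (2.68%) every run 2 library lay above every run 1 library, and in 232 genes (2.08%) every run 2 library lay below. The median log2 fold change of all genes was 0.02. Without the 3 libraries that held both Xist and Y-linked transcripts, 3322 genes were called, of which 3187 were among the 4007. With levels of Xist and of Y-linked transcripts as covariates, 2482 were called, of which 2410 were among the 4007 (60.1%). P-values measure the spread between these lymphomas, 1 library each.

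The run took a larger part of the variance than the T cell group in single genes and a smaller part in the leading component. The median share of a gene's variance was 11.6% for run and 7.93% for group, and more than 50% lay with run in 1451 genes and with group in 397. The first principal component of the 1000 most variable genes held 30.8% of the variance, and group accounted for 73.9% of it and run for 1.63%. The second held 15.0%, with 33.3% from run and 1.08% from group. The nearest library belonged to the same run for 19 of 23 libraries and to the same group for 21 of 23.

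The run difference was also fitted within each group. Among T cell sufficient lymphomas 2695 genes were called (24.2%), 1455 higher (13.1%) and 1240 lower (11.1%) in run 2. Among T cell deficient lymphomas 2118 were called (19%), 1079 higher (9.69%) and 1039 lower (9.33%). The lists shared 1482 genes, 55.0% of the sufficient and 70.0% of the deficient calls, and 1479 of the shared genes had the same sign. Of all genes, 72.6% had the same sign in both groups. Across the 11140 genes, the values of the groups had a Pearson r of 0.403 and a Spearman rho of 0.511, as a description, since genes are not independent and each group has its own libraries. The difference of the run difference between the groups was tested as an interaction, and edgeR called 0 genes (smallest adjusted p = 0.248). At an unadjusted p under 0.05 there were 733, and limma-voom also called 0. Leaving out libraries changed that count. Without T cell sufficient libraries 9, 10 and 11 the interaction called 42 genes, and the sufficient group kept 1622 calls (875 higher and 747 lower). Libraries 8 and 12 were then the only sufficient libraries of run 2, with Xist at 1190 and 1340 CPM. The sufficient libraries of run 1 had a median Xist of 5.38 CPM and a highest value of 357 CPM. Run and Xist level thus went together in that fit. Without T cell deficient library 7, the calls among deficient lymphomas fell in number from 2118 to 1416. Those higher in run 2 went from 1079 to 758 and those lower from 1039 to 658. That library had more neutrophil transcripts than any other library, and whether this bears on the loss was not tested.

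**Figure D1:**
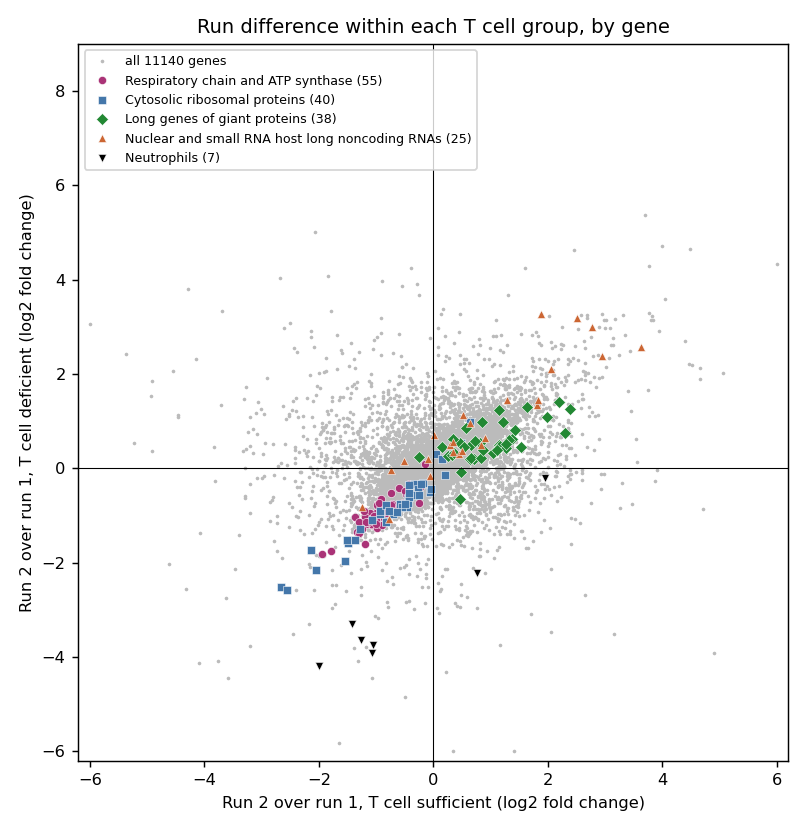
Run 2 over run 1 log2 fold change of each of 11140 genes among T cell sufficient lymphomas (x axis) and among T cell deficient lymphomas (y axis), with values beyond 6 drawn at 6 and members of named gene lists in colour. Respiratory chain and ribosomal protein genes lie low on both axes, and genes of giant proteins lie high on both, while 1479 of the 1482 genes called in both groups have the same sign.

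Transcript length went with the run difference. Genes were sorted by their longest annotated transcript (GENCODE M21, GRCm38, with 10644 genes matched) and cut into 5 bins of equal size. In the shortest bin, 67 to 2020 nt, the median log2 fold change was -0.31, with 6.34% of genes called higher and 40.8% called lower in run 2. In the longest bin, from 5281 nt, it was 0.30, with 33.7% called higher and 3.90% lower. The bins between had medians of -0.07, 0.02 and 0.13, so the order of medians followed the order of lengths. Both groups showed it: the shortest and longest bins had medians of -0.32 and 0.28 among sufficient and -0.31 and 0.32 among deficient lymphomas. Spearman's rho with length across genes was 0.378 for the adjusted difference, 0.310 among sufficient and 0.370 among deficient lymphomas, as a description (n = 10644 genes that share the same libraries).

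The share of counts shows the same without any model. Genes with a longest transcript under 1 kb took 3.41% to 4.82% of the counts in run 1 libraries, with a median of 4.09%, and 1.90% to 3.23% in run 2 libraries, with a median of 2.60%. Genes over 5 kb took 21.4% to 25.0% in run 1, with a median of 22.7%, and 26.5% to 32.0% in run 2, with a median of 28.5%. Neither measure overlapped between the runs. The groups did not overlap within either T cell group, since the short genes took 3.70% to 4.82% against 2.66% to 3.23% in sufficient and 3.41% to 4.20% against 1.90% to 2.60% in deficient libraries.

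**Figure D2:**
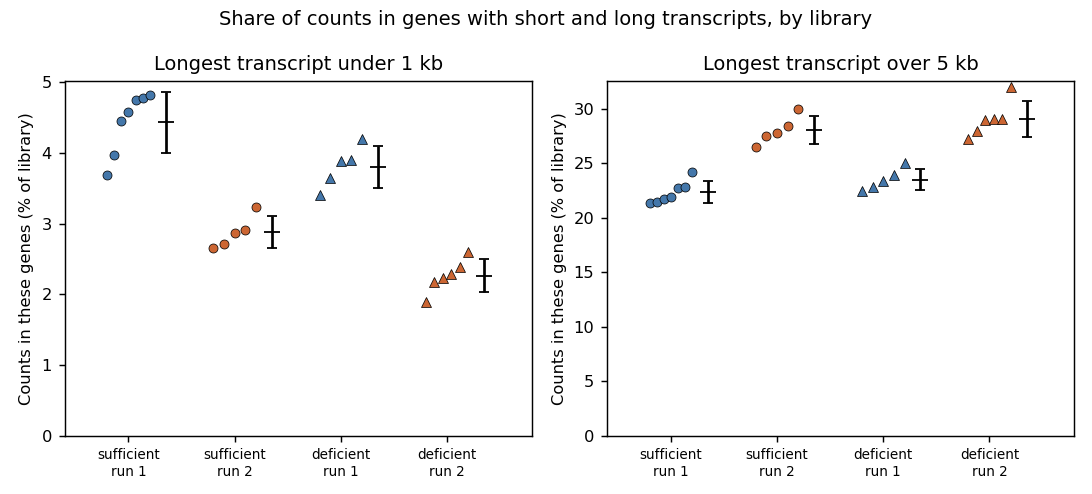
Percent of a library's counts in genes with a longest transcript under 1 kb and over 5 kb, each point 1 library, split by run and T cell group, with mean and SD. Every run 2 library lies below every run 1 library for short genes (at most 3.23% against at least 3.41%) and above for long genes (at least 26.5% against at most 25.0%).

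GC content and level went with it too, GC content more so at a like length. Over all genes, the 5 bins of transcript GC content had medians of 0.05, -0.02, -0.01, 0.00 and 0.09 from low to high GC, and rho was 0.03. The bins of mean level had medians from 0.26 in the lowest to -0.08 in the highest, and rho was -0.18. Among the longest transcripts, the median was 0.24 in the lowest GC bin and 0.54 in the highest, and in the middle length bin -0.03 and 0.23. Among the shortest transcripts, the GC bins had -0.34 and -0.24, and the median was 0.02 at the lowest level and -0.46 at the highest. Biotypes of long noncoding RNA had medians above 0, to unlike degrees. The 68 lincRNAs had 0.46, with 24 called higher and 3 lower (background 18.4% higher and 17.5% lower). The 45 antisense genes had 0.41, with 17 higher and 5 lower. The 67 genes of the biotype processed transcript had 0.27, with 18 higher and 8 lower, near the 0.26 of the lowest level bin. Reads of antisense genes and their partners cannot be told apart without strand. The 337 genes of the X chromosome had a median of -0.22, -0.37 among sufficient and -0.09 among deficient lymphomas, beside the uneven Xist and Y-linked counts of the runs given above.

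**Figure D3:**
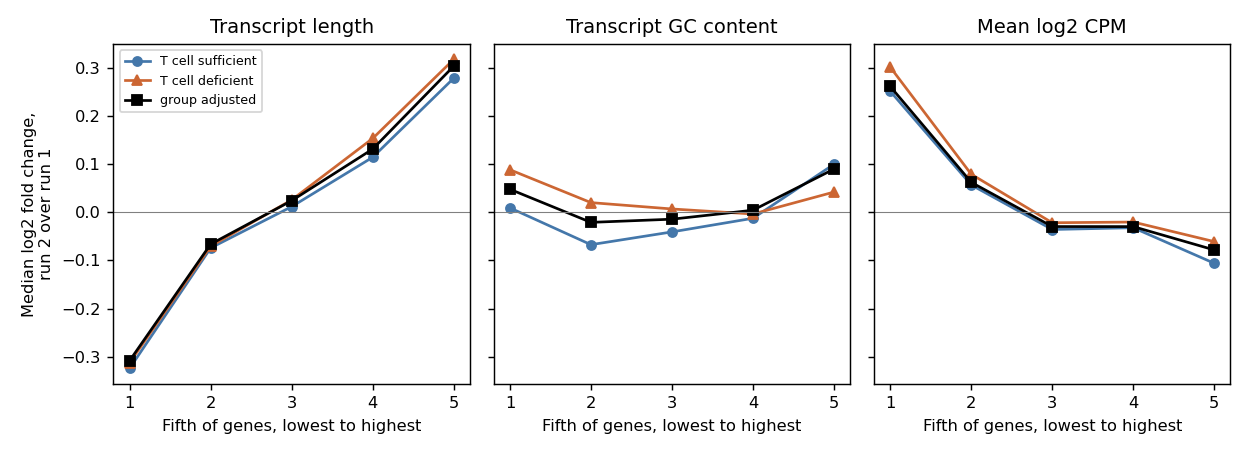
Median log2 fold change, run 2 over run 1, in 5 bins of genes by longest transcript, transcript GC content and mean log2 CPM, for the adjusted comparison and within each group. Medians climb from -0.31 in the bin of shortest transcripts to 0.30 in that of the longest, while those of GC bins stay between -0.02 and 0.09.

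An offset for transcript length, added after seeing these values, takes out the trend over length within each library before the test. With it, 3236 genes were called, of which 2672 were also called without it (66.7% of the 4007). In each length bin, of 2128 to 2130 genes, 280 to 314 were then called higher and 301 to 325 lower. Length-adjusted counts of the gene groups are to be read beside these shares, not the unadjusted ones. Values with the offset are given beside the gene groups below as "length-adjusted".

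The 2 largest falls between the runs were those of microRNA loci. The mature sequences of RefSeq (GRCm38.p6) are printed because each is a short locus whose letters bear on what was counted, with the seed, bases 2 to 8, in capitals.
mmu-miR-6236: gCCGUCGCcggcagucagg
mmu-miR-703: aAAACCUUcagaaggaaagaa
mmu-miR-6236 lies at chr9:110281353-110281371 on the plus strand, and mmu-miR-703 at chr5:98475616-98475636 on the minus strand. The seeds differ. The library kit captures longer RNA, and which transcripts gave the counts at these loci was not tested. Both sequences were looked for in the transcripts of GENCODE M21 alone, and RNAs outside that set were not searched. Within it, the letters of mmu-miR-6236 were in no transcript of another gene. Those of mmu-miR-703 were in transcripts of 4 other genes on the same strand and of 1 on the opposite strand. Among these genes was Eef1a1, a translation elongation factor with some of the highest counts in the table. Eef1a1 itself had a log2 fold change of -0.25 ± 0.09 SE (edgeR adjusted p = 0.0294), a far smaller change than that of Mir703. Without T cell sufficient library 10 or T cell deficient library 9, Eef1a1 did not pass the test. Whether its reads entered the counts of Mir703 was not tested.

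Mir6236 was at 118 to 694 CPM in run 1, with a median of 265, and at 10.7 to 34.9 CPM in run 2, with a median of 16.3. The runs did not overlap, and the log2 fold change was -4.11 ± 0.30 SE (edgeR adjusted p = 9.09e-10), -4.09 among sufficient and -4.12 among deficient lymphomas. Mir703 was at 3.30 to 23 CPM in run 1, with a median of 11.8, and at 0.329 to 1.23 CPM in run 2, with a median of 0.910. It did not overlap either (log2 fold change -3.92 ± 0.31 SE, edgeR adjusted p = 2.60e-09). The annotated loci of 123 nt and 109 nt are among the shortest tested, and length-adjusted both still fell, by 3.54 and 3.34. Rn45s, the ribosomal RNA precursor, was at 1314 to 6811 CPM in run 1 and 1840.4 to 5599 CPM in run 2 and missed the threshold (log2 fold change 0.64, edgeR adjusted p = 0.0512), but passed it without T cell sufficient library 1 (0.84, adjusted p = 0.0056). Lars2, a mitochondrial leucyl-tRNA synthetase, fell by 1.29 ± 0.19 SE (edgeR adjusted p = 1.36e-05). Rn45s, Lars2 and Eef1a1 were chosen after their values were seen.

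Genes of the respiratory chain and ATP synthase, the machinery that makes ATP in mitochondria, were lower in run 2 almost throughout. Of 55 nuclear genes tested, 54 fell and none rose (background 17.5% lower), with a median log2 fold change of -0.89 beside 0.02 for all genes. The median was -0.92 among sufficient lymphomas, where 51 fell, and -0.90 among deficient lymphomas, where 52 fell. In 32 of the 55, every run 2 library lay below every run 1 library (background 2.08%). The summed level ran from 7875 to 10710 CPM in run 1 and from 4565 to 6435 CPM in run 2. Length-adjusted, the median was -0.53, with 43 lower and 1 higher. These are short genes, with a median longest transcript of 927 nt.

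Atp5k, a small ATP synthase subunit, was at 51.4 to 100.2 CPM in run 1, with a median of 75.0, and 16.4 to 24.6 CPM in run 2, with a median of 21.1. Its log2 fold change was -1.88 ± 0.11 SE (edgeR adjusted p = 6.63e-11), and length-adjusted -1.33. Ndufa1, a subunit of complex I chosen after its value was seen, fell by 1.77 ± 0.24 SE. Ndufa3 and Ndufa4, also of small size and assigned to complex I and to complex IV, fell by 1.27 and 1.12, and Cox6b1, a subunit of complex IV, by 1.03. None of these 5 genes overlapped between the runs. Their falls were alike in both groups, as for Cox6b1 with -1.10 and -0.95.

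Mitochondrial ribosomal proteins, which translate the genes of mitochondrial DNA, behaved alike. Of 45 tested, 40 fell and none rose (background 17.5% lower), with a median of -0.63 (-0.60 and -0.62 within the groups). In 12 of the 45, every run 2 library lay below every run 1 library (background 2.08%). Length-adjusted, the median was -0.35, with 31 lower and 1 higher. Mrpl14, of the large subunit, was at 24.7 to 33.2 CPM in run 1 and at 10.1 to 18.3 CPM in run 2. Mrpl33 and Mrps21 fell by 1.11 and 1.03.

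Cytosolic ribosomal proteins, the protein part of the ribosomes that translate most messenger RNA, were less uniform. Of 40 tested, 30 fell, 2 rose and 8 were not called (background 17.5% lower and 18.4% higher). The median was -0.65 (-0.52 and -0.76 within the groups). In 15 of the 40, every run 2 library lay below every run 1 library (background 2.08%). Rps28, of the small subunit, was at 31.3 to 92.3 CPM in run 1, with a median of 47.1, and 5.83 to 12.8 CPM in run 2, with a median of 8.09. It fell by 2.56 ± 0.16 SE (edgeR adjusted p = 1.55e-10). Rpl39 and Rpl41, among the shortest proteins of the large subunit, fell by 2.59 and 2.10, and Rps18 and Rps24 by 1.53 and 1.51. None of these overlapped between the runs. The 2 that rose were Rpl5, by 0.81 ± 0.15 SE (edgeR adjusted p = 0.000215), and Rpl10, by 0.51 (adjusted p = 0.0346, which missed the threshold without single libraries, for example T cell sufficient library 9, 0.48 with adjusted p = 0.0585). Both were chosen after their values were seen, and both had low counts for ribosomal proteins, with run 1 medians of 7.95 and 24.3 CPM. Length-adjusted, the median of the list was -0.32, with 20 lower and 5 higher. Ribosomal protein genes have many near-identical processed copies, and the authors' counting could split their reads, so single values are uncertain.

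**Figure D4:**
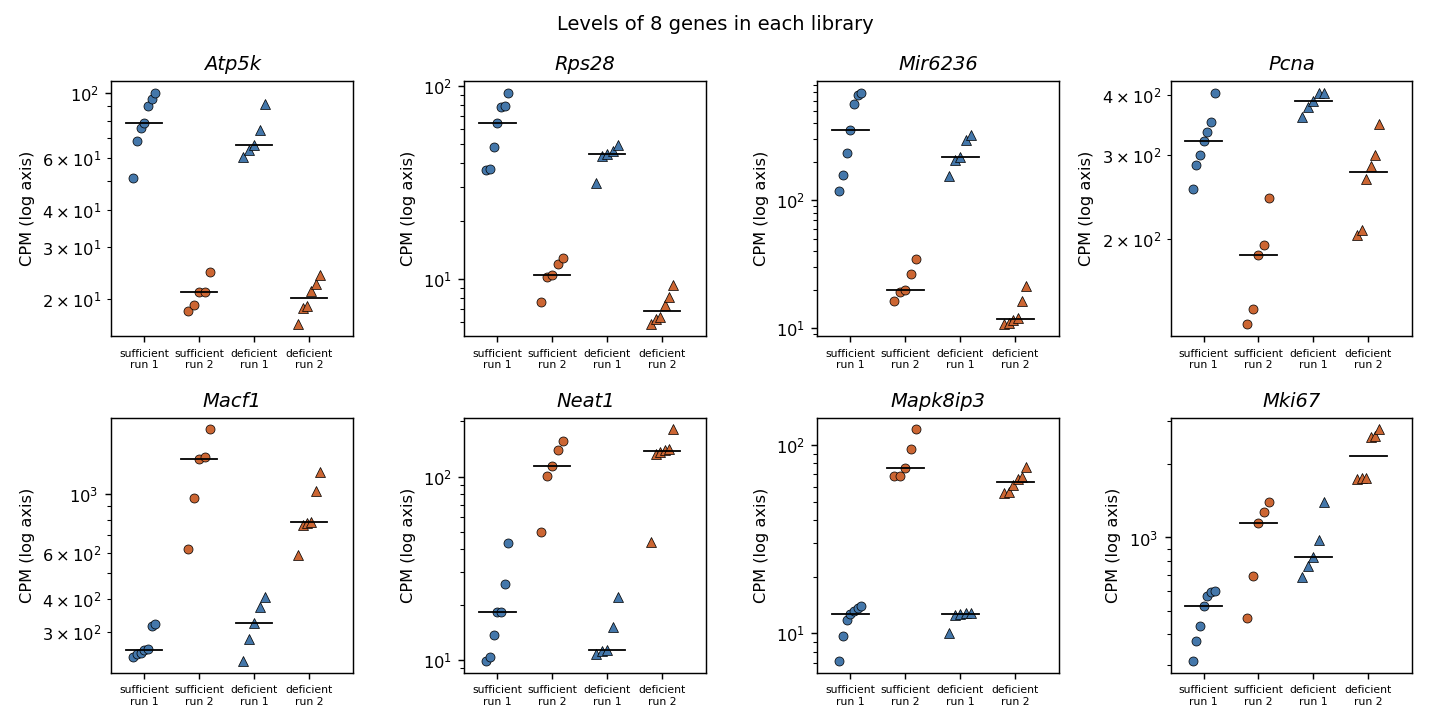
CPM (log axis) of 8 genes in every library, split by run and T cell group, with a line at the median. Atp5k, Rps28 and Mir6236 lie lower and Macf1, Neat1 and Mapk8ip3 higher in every run 2 library than in every run 1 library, while Pcna and Mki67 overlap between the runs and differ in opposite directions.

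Genes that encode giant proteins moved the other way. Of 38 tested, 33 rose and none fell (background 18.4% higher), with a median of 0.69 (0.84 among sufficient and 0.50 among deficient lymphomas). Their summed level was 8280 to 10540 CPM in run 1 and 11740 to 21050 CPM in run 2. Macf1, a linker of actin filaments and microtubules, was at 232 to 406 CPM in run 1, with a median of 269, and 588 to 1770.2 CPM in run 2, with a median of 971. It rose by 1.81 ± 0.17 SE (edgeR adjusted p = 3.57e-08). Kmt2d, Kmt2a and Kmt2c, methyltransferases of histone H3 at enhancers and promoters, rose by 1.84, 1.47 and 1.10 and did not overlap between the runs. Kmt2d rose by 2.38 among sufficient and 1.26 among deficient lymphomas, a difference that the interaction did not call (adjusted p = 0.665). Plec and Ahnak, giant scaffold proteins chosen after their values were seen, each rose by 1.55, with overlapping runs. Length-adjusted, the median of the list was 0.25, with 13 higher and 1 lower.

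Long noncoding RNAs of the nucleus and hosts of small RNAs rose more often than all genes. Of 25 tested, 14 rose and 2 fell (background 18.4% higher and 17.5% lower), with a median of 0.67 (0.52 and 0.65 within the groups). Neat1, the core RNA of paraspeckles, was at 9.85 to 43.3 CPM in run 1, with a median of 14.3, and 43.9 to 181 CPM in run 2, with a median of 136. It rose by 2.84 ± 0.28 SE (edgeR adjusted p = 9.32e-08). Malat1, an abundant RNA of nuclear speckles, was at 23.5 to 90.9 CPM in run 1 and 92.2 to 615 CPM in run 2. It rose by 2.68 ± 0.27 SE (edgeR adjusted p = 1.20e-07). Mir17hg, the host of the miR-17-92 cluster, and Kcnq1ot1, an imprinted antisense RNA chosen after its value was seen, rose by 2.88 and 2.08. None of these 4 overlapped between the runs, and T cell deficient library 5 had the lowest Neat1 of run 2. The 2 that fell, Snhg8 and Snhg6, are short hosts of small nucleolar RNAs with longest transcripts of 776 and 816 nt. They fell by 1.04 and 0.92. Length-adjusted, the list kept a median of 0.65, with 14 higher and 1 lower, whereas Snhg6 no longer passed the test (-0.36, edgeR adjusted p = 0.142).

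Splicing factors, the proteins that choose and join exons, had 20 of 38 genes higher and 1 lower (background 18.4% higher and 17.5% lower). Their median was 0.32 (0.32 and 0.31 within the groups). Pnisr, a serine and arginine rich protein of nuclear speckles, was at 21.8 to 36.2 CPM in run 1 and 78.4 to 155 CPM in run 2. It rose by 1.96 ± 0.12 SE (edgeR adjusted p = 7.99e-11). Clk1 and Clk4, kinases that phosphorylate splicing factors, rose by 1.5 and 1.40, and Srrm2, a scaffold of nuclear speckles, by 0.90. None of these overlapped between the runs. The 1 that fell was Hnrnpc, which binds uridine stretches in nascent RNA, by 0.45 ± 0.07 SE. Pnisr, Clk1 and Clk4 are known for transcripts that keep introns in the nucleus, but intronic reads cannot be told from the counts. Outside the list, Mapk8ip3, a scaffold of kinesin transport, had the smallest p of all genes. It was at 7.13 to 14.0 CPM in run 1, with a median of 12.6, and 55.6 to 121 CPM in run 2, with a median of 68.0. It rose by 2.64 ± 0.13 SE (edgeR adjusted p = 6.10e-12). Leng8 and Ccnl1, nuclear proteins linked to RNA processing, rose by 1.88 and 1.39. These 3 were named for their p after seeing the data. Length-adjusted, the list had a median of 0.12, with 18 higher and 2 lower, and Pnisr and Mapk8ip3 rose by 1.79 and 2.28.

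**Figure D5:**
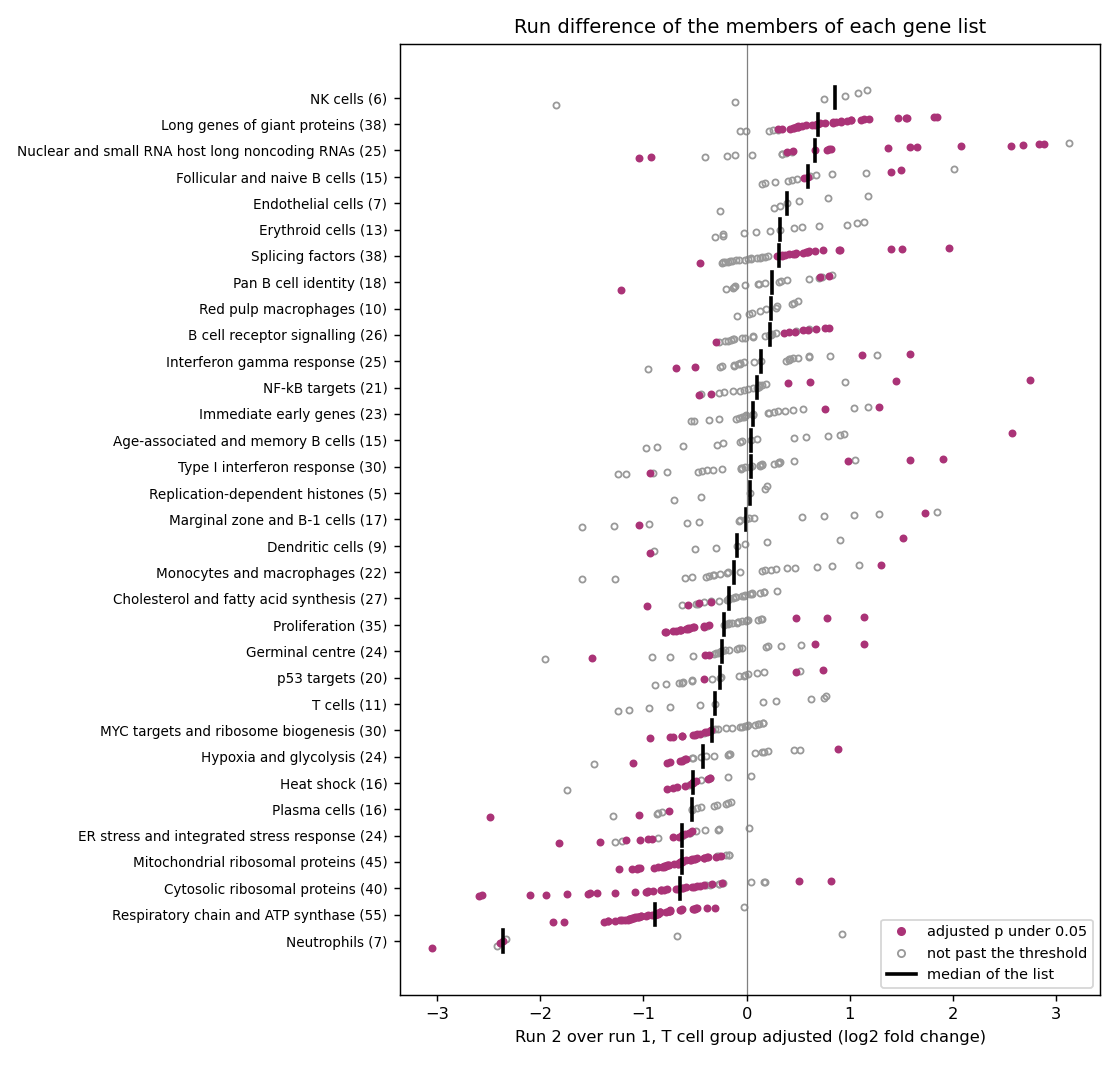
Log2 fold change, run 2 over run 1, of each tested member of gene lists with at least 5 tested genes, with a bar at each list's median. The respiratory chain and both ribosomal protein lists lie lowest apart from the neutrophil list (median -2.36 over 7 genes), and the NK cell list (median 0.85 over 6 genes, none called), genes of giant proteins and nuclear noncoding RNAs lie highest.

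The remaining large rises were of genes near silence in run 1. Fcamr, an Fc receptor for IgA and IgM, was at 0 to 2.78 CPM in run 1, with a median of 1.07, and 3.59 to 63.5 CPM in run 2, with a median of 16.0. It rose by 4.56 ± 0.69 SE (edgeR adjusted p = 1.99e-05) and did not overlap between the runs. Igflr1, a TNF receptor like protein, was at 0 to 1.02 CPM in run 1 and 3.34 to 7.76 CPM in run 2, and Slc9a5, a sodium and proton exchanger, at 0 to 2.70 CPM and 2.96 to 22.0 CPM. These also did not overlap, and they rose by 3.44 and 3.54. Smim5, Ptprv, Myo1h and Prdm16 rose by 3.56, 3.54, 3.53 and 4.46 in overlapping runs, with medians of 0.148 to 0.538 CPM in run 1 and 4.59 to 15.5 CPM in run 2. For libraries at 0 the fitted values depend on the prior count.

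Other large changes were of genes that overlapped between the runs, and some of these had high values in few lymphomas. Robo1, a receptor of axon guidance, was at 0 to 3.43 CPM in run 1, with a median of 0, and 0 to 134 CPM in run 2, with a median of 2.40, and it was called without each library in turn. Krt8, a keratin, had medians of 0.217 and 1.01 CPM beside a highest run 2 value of 155 CPM, and without T cell sufficient library 8 it was not called (log2 fold change 1.09, edgeR adjusted p = 0.512). With T cell deficient library 1 left out, Sel1l3 was not called (2.79, adjusted p = 0.114). The call of Pitpnm3, a phosphatidylinositol transfer protein, ended when T cell sufficient library 9 was left out (2.36, adjusted p = 0.0541). Among the falls, Gja1, a gap junction protein, had medians of 0.443 and 0.386 CPM. Its highest run 1 value, 161 CPM, was in a T cell deficient library. T cell sufficient library 5 held 18.9 CPM, and the other sufficient libraries of run 1 at most 0.811 CPM. Gja1 was not called without T cell sufficient library 5 (-2.41, edgeR adjusted p = 0.330), nor without T cell deficient library 9 (-3.18, adjusted p = 0.0592). Slpi, an inhibitor of neutrophil proteases, reached 1239 CPM in run 1 and was not called without T cell sufficient library 1 (-0.93, adjusted p = 0.497). Deptor, an inhibitor of mTOR, was not called without T cell sufficient library 3 (-0.99, edgeR adjusted p = 0.219). Neither Cth, an enzyme of cysteine synthesis, nor Crtam, a receptor of cytotoxic cells, was called without T cell deficient library 9 (-1.28, adjusted p = 0.0801, and -1.20, adjusted p = 0.450). Crtam had medians of 30.9 CPM in run 1 and 1.24 CPM in run 2. The calls of Gja1, Slpi, Deptor and Crtam also ended without other single libraries. Over the alternative fits, the call was lost, with the sign kept, in 23 of 43 for Deptor and 17 of 43 for Gja1. For Crtam it was lost in 14 of 43 and for Slpi in 19 of 42. Faxc, with medians of 23.4 CPM in run 1 and 1.24 CPM in run 2, fell by 3.42 in overlapping runs. Like Robo1, Faxc, Mir6236, Mir703, Rpl39 and Rps28 were called without each library in turn.

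Among markers of other cell types, only the neutrophil list had more than 1 called gene of one direction. Of 18 listed genes 7 were tested, and 3 fell (background 17.5% lower). These were S100a8 and S100a9, the calgranulins, by 3.05 ± 0.79 SE (edgeR adjusted p = 0.00423) and 2.39 (adjusted p = 0.0183), and Chil3, a chitinase-like protein, by 2.36 (adjusted p = 0.0466). The other 11 listed genes were not in the table. The summed level was 1.25 to 195 CPM in run 1, with a median of 10.1, and 2.23 to 41.0 CPM in run 2, with a median of 7.19, so the runs overlap widely. In the deficient group, run 1 libraries had 7.44 to 195 CPM and run 2 libraries 2.23 to 13.3 CPM, overlapping in the lowest run 1 library. T cell deficient libraries 7 and 9 held 195 and 116 CPM, and T cell sufficient library 5 held 94.6 CPM. The median of the list was -1.08 among sufficient and -3.63 among deficient lymphomas, but for S100a8 the interaction was -2.19 with an edgeR adjusted p of 0.775. Without T cell sufficient library 5, S100a9 and Chil3 were not called (-1.70, adjusted p = 0.114, and -1.60, adjusted p = 0.208), and the call of Chil3 also ended without any of 11 other libraries. Length-adjusted, the median was -2.13 and S100a8 alone was called (-2.57, adjusted p = 0.0145), while S100a9 and Chil3 had adjusted p = 0.0603 and 0.0745. Less RNA per neutrophil and fewer neutrophils cannot be told apart in bulk samples. With the neutrophil level as a covariate, added after seeing the data, 3493 genes were called for run, 3297 of them among the 4007.

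The other marker lists differed less. Monocyte and macrophage markers, all 22 of them tested, had a summed 1298 to 8520 CPM in run 1 and 1742 to 6542 CPM in run 2. Only Ccr2, a chemokine receptor of inflammatory monocytes, was called among them (log2 fold change 1.30, edgeR adjusted p = 0.0447), and that call ended when any of 12 libraries was left out. T cell markers, 11 of 21 tested, had a summed 71.3 to 856 CPM in run 1 and 78.5 to 1197 CPM in run 2. The highest value was in T cell deficient library 6. Sufficient and deficient libraries had means of 434 and 226 CPM in run 1, but of 264 and 412 CPM in run 2. The list thus did not follow the T cell group in both runs, and which cells gave these counts was not tested. None of the T cell markers was called by edgeR, DESeq2 or limma-voom, and 0 of 11 had an unadjusted p under 0.05. Cd3e, which the T cell deficient mice are labelled to lack, was at 0 to 1.87 CPM in run 1 and 0 to 5.77 CPM in run 2 (log2 fold change 0.77, adjusted p = 0.325).

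Stromal and endothelial markers were at low levels. The 4 stromal markers tested had a summed 9.44 to 14.8 CPM in the sufficient libraries of run 1 and 18.9 to 49.0 CPM in those of run 2, without overlap, and a median log2 fold change of 1.54. In deficient libraries the order was the other way, with 3.31 to 15.1 CPM in run 1 and 1.97 to 8.97 CPM in run 2 and a median of -0.78. Of the 4, none was called with the group adjusted, by edgeR, DESeq2 or limma-voom, and 0 had an unadjusted p under 0.05. Endothelial markers, 7 tested, had medians of 1.29 and -0.63 within the groups. Red pulp macrophage markers, 10 tested, had medians of 1.24 and -0.67, with 1938 CPM in T cell sufficient library 11 beside 95.2 to 649 CPM in run 1. With the group adjusted, edgeR called 0 genes of either list, with 1 endothelial and 0 red pulp genes at an unadjusted p under 0.05, and DESeq2 and limma-voom also called 0. Among sufficient lymphomas alone, edgeR called 3 genes of these lists, all higher in run 2 and named after their values were seen. They were 1 of 4 stromal and 2 of 7 endothelial genes, with 0 of 10 red pulp genes. Within sufficient lymphomas 13.1% of all genes were called higher, and over the lists together the share was near that. Kdr, a receptor of vascular endothelial growth factor, rose by 2.00 (adjusted p = 0.0345), Plvap, a protein of endothelial diaphragms, by 1.5 (adjusted p = 0.0176), and Fn1, or fibronectin, by 2.00 (adjusted p = 0.0411). The interaction called none of these. The part of these cells in the run difference was not tested beyond the covariates named here. With the monocyte and macrophage level as a covariate 4036 genes were called, and with the level of the T cell list 4094.

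B cell identity genes were near equal between the runs for the most part. Of 18 tested, 15 were not called. Ms4a1, which encodes CD20, was at 1120.2 to 3410 CPM in run 1 and 1051 to 3336 CPM in run 2 (log2 fold change 0.12 ± 0.22 SE, edgeR adjusted p = 0.706). Bcl6, the gene of the transgene, was at 366 to 1056 CPM in run 1 and 300.0 to 1797 CPM in run 2 (0.34 ± 0.27 SE, adjusted p = 0.349), and its value turned to -0.036 without T cell sufficient library 11. Transgene and endogenous counts cannot be told apart, and both genes were chosen after their values were seen. Pax5, the factor that holds B cell identity, rose by 0.71 (edgeR adjusted p = 0.00366). Vpreb3, a partner of immunoglobulin chains with a longest transcript of 729 nt, fell by 1.22. Length-adjusted, Pax5 and Vpreb3 were not called (0.36, adjusted p = 0.104, and -0.68, adjusted p = 0.0716).

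B cell receptor signalling genes had 8 of 26 higher and 1 lower (background 18.4% higher and 17.5% lower). Their median was 0.22 (length-adjusted 0.20, with 4 higher and none lower). The length-adjusted share of higher genes was near that of all genes. Vav2, an exchange factor for small GTPases, was at 101 to 156 CPM in run 1 and 157 to 536 CPM in run 2, just apart, and rose by 0.76 ± 0.16 SE (edgeR adjusted p = 0.000908). T cell sufficient library 10 had the highest value. Ptprc, the phosphatase CD45, rose by 0.60. Of the 15 members longer than the median of all genes, 3431 nt, 7 rose and none fell, and of the 11 shorter ones 1 rose and 1 fell. Over all genes, 1397 of 5324 longer ones rose and 394 fell, and 547 of 5320 shorter ones rose and 1466 fell.

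Follicular and naive B cell markers were all at positive values, 15 of 15, with 4 called (background 18.4% higher). Their median was 0.59 (1.17 among sufficient and 0.31 among deficient lymphomas). Cd55, a complement regulator, and Zfp318, needed for surface IgD, rose by 1.5 and 1.40 in overlapping runs. Btla, an inhibitory receptor, and Foxp1, a factor of mature B cells, rose by 0.59 and 0.55. Length-adjusted, the median was 0.56 with 2 called, a share near the length-adjusted share of all genes. Foxp1 and Zfp318 were then not called (0.19, edgeR adjusted p = 0.445, and 0.99, adjusted p = 0.0696). Plasma cell genes lay the other way, with 16 of 16 at negative values and a median of -0.53, but only 3 called, a share near the 17.5% of all genes. Mzb1, a chaperone of antibody secretion, was at 675 to 2310 CPM in run 1 and 454 to 917 CPM in run 2 and fell by 1.04 ± 0.19 SE (adjusted p = 0.000144). Sec11c, of the signal peptidase, fell by 0.75. Length-adjusted, Mzb1, with a longest transcript of 904 nt, had -0.48 and Sec11c -0.80, and both were called. Germinal centre genes had 2 higher and 3 lower of 24, shares below those of all genes (18.4% and 17.5%), and length-adjusted 2 higher and none lower. Lmo2, a germinal centre factor, fell by 1.5 but was not called without T cell deficient library 9 (-1.20, adjusted p = 0.0606), and Neil1, a DNA glycosylase, rose by 1.14. Ezh2, a histone methyltransferase, fell by 0.41 (adjusted p = 0.0427), a call that ended when any of 11 libraries was left out.

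Proliferation genes were lower more often than higher. Of 35 tested, 16 fell and 3 rose (background 17.5% lower and 18.4% higher), with a median of -0.22 (-0.40 among sufficient, where 14 fell and 1 rose, and -0.12 among deficient lymphomas, where 1 fell and 2 rose). The background within the groups was 11.1% lower and 13.1% higher among sufficient, and 9.33% and 9.69% among deficient lymphomas. Of the 18 shorter than the median of all genes, 12 fell and none rose, with a median of -0.56, and of the 17 longer ones 4 fell and 3 rose, with a median of -0.14. Length-adjusted, the list had a median of -0.29, with 15 lower and 1 higher. The 3 that rose were Mki67, the antigen Ki-67, and Cenpe and Cenpf, kinetochore proteins, with longest transcripts of 10061, 7910 and 11130 nt. Mki67 was at 311 to 1397 CPM in run 1, with a median of 599.6, and 467 to 2778 CPM in run 2, with a median of 1740. It rose by 1.13 ± 0.18 SE (edgeR adjusted p = 2.85e-05). Cenpe and Cenpf rose by 0.78 and 0.48. Pcna, the sliding clamp of DNA replication, with a longest transcript of 1518 nt, was at 255 to 405 CPM in run 1 and 133 to 348 CPM in run 2. It fell by 0.69 ± 0.11 SE (adjusted p = 5.17e-05). Cdk1, the kinase of mitotic entry, Ccnb1, its cyclin, and Mcm5, a subunit of the replicative helicase, fell by 0.78, 0.79 and 0.55. Length-adjusted, Mki67 had 0.71 and Pcna -0.46, both called, while Cenpe and Cenpf were not (0.45, adjusted p = 0.0795, and 0.05, adjusted p = 0.841). Without T cell sufficient library 9, Cenpf was not called (0.42, adjusted p = 0.0596). Cenpe, Cenpf and Ccnb1 were chosen after their values were seen. The summed level of the list had medians of 6576 CPM in run 1 and 5354 CPM in run 2 among sufficient lymphomas and of 8627 and 9149 CPM among deficient lymphomas. With it as a covariate, 3818 genes were called for run.

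Targets of MYC and genes of ribosome assembly, which serve cell growth, had 13 of 30 lower and none higher (background 17.5% lower). The median was -0.34 (-0.25 and -0.39 within the groups). Nme1, a nucleoside diphosphate kinase, was at 220 to 426 CPM in run 1 and 78.2 to 175 CPM in run 2, without overlap. It fell by 0.94 ± 0.13 SE (edgeR adjusted p = 5.67e-06). Eif4e, the cap-binding initiation factor, and Ldha, lactate dehydrogenase, fell by 0.63 and 0.62. Length-adjusted, the median was -0.28, with 12 lower. Genes of hypoxia and glycolysis had 7 of 24 lower and 1 higher (background 17.5% lower and 18.4% higher). Their median was -0.42 (length-adjusted -0.39, with 9 lower and 1 higher). The median was -0.78 among sufficient lymphomas, with 7 lower (background 11.1%), and 0.02 among deficient lymphomas, with none lower (background 9.33%). Pgk1 and Aldoa, glycolytic enzymes, fell by 1.10 and 0.59, with -1.42 and -0.84 among sufficient and -0.76 and -0.32 among deficient lymphomas. The interaction called no gene. Gapdh, another glycolytic enzyme, rose by 0.89, but at 2.69 to 12.5 CPM its counts are far below those of Aldoa at 522 to 1297 CPM, and its many copies make it uncertain.

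Stress genes fell in part. One list was of endoplasmic reticulum stress and the integrated stress response, which adjusts protein folding and amino acid supply. It had 12 of 24 lower and none higher (background 17.5% lower), with a median of -0.62 (-0.61 and -0.77 within the groups). Manf, a secreted folding factor, was at 113 to 512 CPM in run 1 and 50 to 288 CPM in run 2. It fell by 1.03 ± 0.29 SE (edgeR adjusted p = 0.00774). Psat1 and Mthfd2, enzymes of serine and one-carbon synthesis, fell by 0.96 and 0.71, and Slc3a2, an amino acid transporter chain, by 0.66. Hspa5, the main chaperone of the reticulum, chosen after its value was seen, fell by 0.60 (adjusted p = 0.0404) and was not called without single libraries, for example T cell sufficient library 4 (-0.51, adjusted p = 0.0718). Length-adjusted, the list kept a median of -0.65, with 7 lower. Heat shock genes had 10 of 16 lower and none higher (background 17.5% lower), with a median of -0.52 (length-adjusted -0.43, with 10 lower). Hspe1 and Hspd1, the mitochondrial chaperonins, fell by 0.77 and 0.72, and Hspe1 was at 126 to 232 CPM in run 1 and 64.6 to 124 CPM in run 2. Length-adjusted, Hspe1, with a longest transcript of 964 nt, was not called (-0.23, adjusted p = 0.129). Stip1 and Ahsa1, partners of HSP90, each fell by 0.52. Of 27 genes of cholesterol and fatty acid synthesis 4 fell, a share below the 17.5% of all genes, among them Ebp, a sterol isomerase, by 0.97.

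Interferon and NF-kB targets, read-outs of T cell and innate signals to the lymphoma, had few calls with the group adjusted, and the interferon lists had medians of opposite sign within the groups. Of 25 interferon gamma targets, 2 rose and 2 fell, shares below the 18.4% and 17.5% of all genes. The median was 0.14 (0.49 among sufficient lymphomas, with 5 higher and 2 lower, and -0.18 among deficient lymphomas, with 1 higher and 2 lower). Within the groups, 13.1% of all genes rose and 11.1% fell among sufficient, and 9.69% and 9.33% among deficient lymphomas. Length-adjusted, the median was 0.035, also with 2 of each. Nlrc5, the activator of MHC class I genes, with a longest transcript of 7578 nt, was at 37.5 to 157 CPM in run 1 and 121 to 391 CPM in run 2. It rose by 1.59 ± 0.22 SE (edgeR adjusted p = 5.97e-06). Cd274, which encodes PD-L1, rose by 1.12 (adjusted p = 0.00437). Psmb9 and Psmb8, subunits of the immunoproteasome, fell by 0.69 and 0.50. Genes induced by the same signal thus changed in both directions, and length-adjusted all 4 kept their sign and their call (1.26, 1.04, -0.66 and -0.32).

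Of 30 type I interferon targets, 3 rose and 1 fell, shares below the 18.4% and 17.5% of all genes. The median was 0.04 with all libraries and -0.055 without T cell sufficient library 1. The median was 0.48 among sufficient lymphomas, with 3 higher and none lower, and -0.39 among deficient lymphomas, with 1 higher and 4 lower. Over all genes, 13.1% rose and 11.1% fell among sufficient, and 9.69% and 9.33% among deficient lymphomas. Only the share of lower genes among deficient lymphomas was above these. The difference of these medians was not tested, and the interaction called none of the genes. Stat2, a factor of the interferon response, was at 24.5 to 87.6 CPM in run 1 and at least 87.6 CPM in run 2, with a highest value of 199 CPM in T cell sufficient library 11, and the runs did not overlap. It rose by 0.99 ± 0.18 SE (edgeR adjusted p = 0.000185). Mx1 and Mx2, antiviral GTPases, rose by 1.91 and 1.58, while Bst2, or tetherin, with a longest transcript of 792 nt, fell by 0.93 and was not called length-adjusted (-0.39, adjusted p = 0.258). Of 21 NF-kB targets, 4 rose and 2 fell (length-adjusted 3 and none), near or below the 18.4% and 17.5% of all genes. Icosl, the ligand of the T cell co-receptor ICOS, was at 0.438 to 19.8 CPM in run 1 and 1.13 to 132 CPM in run 2. It rose by 2.75 ± 0.77 SE (adjusted p = 0.00746). Tnf, a cytokine, rose by 1.44, with 2.36 among sufficient and 0.43 among deficient lymphomas, an interaction that was not called (adjusted p = 0.750). Birc3, an inhibitor of cell death, rose by 0.40.

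The run term was also set against the comparison of the T cell groups, which both runs hold in unequal numbers. With a run term 2483 genes were called between deficient and sufficient lymphomas, and without it 1807, of which 1761 were shared. The term thus added 722 calls and removed 46. Of the group calls, 838 were also called for run, which is 33.7% of the group calls and 20.9% of the run calls. Over all genes 36.0% were called for run and 22.3% for group, so the overlap was no larger than these shares. Nlrc5, Icosl and Stat2 were called for run and not for group, and Cd274 was called for both (run 1.12, group -1.60, edgeR adjusted p = 0.00113 for group).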

How the data were processed

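RNA of 23 mouse B lymphoma libraries was analysed from the raw counts per gene that the authors deposited; of their own steps, the submitters' processing notes name limma and the builds mm10 and GRCm38. The aligner, counting tool, annotation and strand setting were not given in the sources used here. All of the 11140 listed genes have over 1 CPM in at least 7 libraries, and no symbol holds a hyphen, so genes outside were not analysed here. The column of T cell sufficient lymphoma 4 was matched by its number. Genes whose 2 name columns differ (19) are not named.

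Counts were tested with edgeR 4.0.16 in R 4.3.3 (TMM scaling, filterByExpr, which removed 0 genes, and the robust quasi-likelihood test), with terms for T cell group and run, and with 1 mean per run and group for the contrasts within groups and the interaction. A gene is called when its p, adjusted over all genes by Benjamini-Hochberg, is under 0.05. The SE is the log2 fold change over the square root of F. Log2 CPM use a prior count of 2. Permutation tests drew 100000 relabellings of run within groups. The code was tested on simulated data. The counts of 56 pairs within run and group were compared by chi-square, and with 31 or more per degree of freedom no pair was taken for 1 library.

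Lengths and GC content come from the GENCODE M21 annotation, in which 10644 symbols (95.5%) match exactly 1 gene, and microRNA sequences from RefSeq. The 38 gene lists hold 940 members, of which 750 have a row, 9 by an older symbol. None of the listed small structured RNAs was tested. Members, lists and the naming rule were chosen with earlier results of these data known. Under that rule, called genes whose mean log2 CPM reached 1 and whose sign was shared by the groups were ranked by size, and 12 were named each way. The 5 largest called interactions each way were to be named too. Each list gave up to 4 genes by smallest p, of which some are printed. A few of the genes so named are not reported here.

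Alternatives were other scalings, filters, thresholds and tools (DESeq2 1.42.0, limma-voom of limma 3.58.1), covariates, counts thinned to the shallowest library, the replicate number as a block and each library left out. The offsets for length and GC content (each library's median deviation from gene means, on the log2 scale, in 20 bins of length, or in 10 bins of length crossed with 5 of GC), the neutrophil covariate and leaving out T cell sufficient libraries 9, 10 and 11 were chosen after seeing the data.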

Additional observations from a re-analysis of the deposited data

Results flagged for a closer look

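Each library was compared, on log2 CPM, with the others of its run and T cell group. It was taken as far from them when its gap to the nearest, over the group's range, exceeded Dixon's 95% critical value. This held in 40 of 624 groups tested (6.41%), where chance gives about 1 in 20. The values printed below are CPM for genes, although the gaps were taken on log2 CPM, and mean log2 CPM for lists. Their part in the run difference was not tested beyond leaving out the library.

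T cell deficient library 6 (run 2) was low in Ptprv (0.57 against 4.82 to 7.85), Nme1 (78.2 against 129 to 157), Vpreb3 (4.55 against 20.5 to 30.7) and Lmo2 (1.31 against 46.4 to 66.0). It was also low in the lists of marginal zone and B-1 cells (3.94), plasma cells (5.86), mitochondrial ribosomal proteins (4.79 against 5.13 to 5.31) and the respiratory chain (5.44 against 5.72 to 5.81). Among the other run 2 libraries, T cell deficient library 5 had the lowest Neat1 (43.9 against 132 to 181), T cell deficient library 3 was high in Pgk1 (69.1) and Ebp (77.4), and T cell sufficient library 10 was high in Srrm2 (1250 against 956 to 991), Vav2 (536 against 186 to 206) and the single mast cell marker tested (4.42). T cell sufficient library 11, which holds both Xist and Y-linked transcripts, was high in S100a8 (3.42), Stat2 (199 against 90.0 to 103), the neutrophil list (2.19) and the p53 list (5.57), and low in Sel1l3 (0.463 against 34.7 to 92.7).

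In run 1, T cell sufficient library 6 was high in Robo1 (3.43), Krt8 (8.50) and Sel1l3 (13.3), and T cell sufficient library 5 was high in Gja1 (18.9) and Chil3 (6.70) and low in Crtam (0.290 against 26.3 to 111). T cell sufficient library 3 stood out by Deptor (148 against 0.572 to 4.62) and Hnrnpc (448, low), and T cell sufficient library 4 by Cox6b1 (241), Bcl6 (1060 against 369 to 482) and a low Cd274 (7.72). T cell sufficient library 1 was low in Ndufa3 (35.5 against 54.1 to 69.5), and T cell sufficient library 2 high in Nme1 (296). Of the T cell deficient libraries of run 1, library 7 had the one Robo1 value above 0 (0.297) and the lowest Lars2 (1200 against 2270 to 2890), library 8 a high heat shock list (7.83) and library 9 a high Cth (136 against 2.56 to 4.46). Library 10 was low in Rps28 (31.3 against 43.3 to 49.2) and in the sex chromosome list (-0.88), and library 11 in Srrm2 (494) and Mapk8ip3 (10.1).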

How the results depend on the processing

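Over 43 alternatives, the 113 named genes gave 4556 values with the same call, 277 that lost it, 18 that gained it and 4 that turned sign. Turned were Gja1 with the neutrophil covariate (1.27), Eef1a1 with the length and GC offset (0.014), and Bcl6 without T cell sufficient library 11 (range without single libraries -0.036 to 0.46) and without the 3 libraries with both Xist and Y-linked transcripts (-0.040). At an adjusted p under 0.01, the sufficient group kept 1491 calls (851 higher, 640 lower) and the deficient group 1060 (542, 518). With Xist and Y-linked covariates the adjusted comparison gave 2482 (1287, 1195). Without the 3 libraries, which left sufficient libraries 8 and 12 in run 2, the sufficient group gave 1622 (875, 747) and the interaction 42. The length offset moved list medians to -0.32 (cytosolic ribosomal), -0.35 (mitochondrial ribosomal), -0.53 (respiratory chain), 0.12 (splicing) and 0.25 (giant proteins). Without single libraries, the adjusted comparison gave 3638 to 4102 calls, the deficient group 658 to 1106 lower genes and the interaction 0 to 2. Other scalings, filters and tools gave 3911 to 4410 calls, and no group term 3674. Replicate numbers did not pair the lymphomas: over 11 pairs the deviations correlated from -0.253 to 0.223, and with the replicate block 3093 genes were called. Where a result moved, the cause was not tested. Genes near the 3-count floor are measured least precisely.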
